A study of Mus musculus with 30 samples.

Results

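Red pulp macrophages are the resident macrophages of the spleen's red pulp. In droplet single-cell RNA profiles of mouse spleen, 334 of 46886 kept cells met the rule for them. Cells were kept with 200 genes or more and with mitochondrial RNA at no more than 10% of UMIs, the unique molecular identifiers that count captured RNA molecules. A red pulp macrophage also had at least 4 UMIs summed over Vcam1, Spic, Hmox1 and Slc40a1, and at least 2 summed over the complement genes C1qa, C1qb and C1qc. It had at most 2 UMIs of the B cell genes Cd79a, Cd79b and Ms4a1, and at most 1 of the T cell genes Cd3e, Cd3d and Cd3g. These 13 genes chose the cells, so their levels are given as a description and were not tested.

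The study compared mice labelled Smc3-WT with mice labelled Smc3-cKO, a conditional knockout of Smc3, a subunit of the cohesin ring that holds chromosome loops. The cells were splenocytes from which red blood cells had been depleted, and each genotype had 2 libraries made with a Chromium 3′ kit. The labels name neither the Cre line nor the deleted part of Smc3, so which cells lost the gene is not known here. They give an age of 6 to 8 weeks for the mice of the sorted dendritic cells and none for these libraries. Nothing in them ties the libraries to different mice, so all p-values measure the spread between libraries only. The other 26 samples of the series were not analysed here.

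Red pulp macrophages engulf old and damaged red blood cells. Heme oxygenase 1, encoded by Hmox1, opens the heme ring and frees its iron, which ferritin stores or ferroportin, encoded by Slc40a1, returns to plasma. Spic is the transcription factor on which these cells depend, heme induces it, and Vcam1 is an adhesion molecule on their surface.

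The 4 libraries held 40367056 to 51299056 UMIs over 9074 to 16096 barcodes, and differed in how many red pulp macrophages they held and how deep these were. Smc3-WT replicates 1 and 2 had 152 and 74 red pulp macrophages, and Smc3-cKO replicates 1 and 2 had 83 and 25. Their median UMIs per cell were 4376, 2148, 5473 and 1488. Smc3-cKO replicate 2 stood apart: its 25 cells held 74680 UMIs in all, 1 cell carried 33.1% of them and the 5 largest carried 61.2%, against 10.3% to 26.8% for the 5 largest in the other libraries. Because of that, results between genotypes are also given without it or without the 5 largest cells. Without its 5 largest cells Smc3-cKO replicate 2 held 20 cells and 29005 UMIs, so its low CPM in that setting rest on very few UMIs. No cell barcode was shared between red pulp macrophages of different libraries, although library pairs shared 36 to 61 barcodes over all cells. Scrublet, a doublet caller, marked 10 of the 334 cells, and it marked only 1.03% of all kept cells in Smc3-WT replicate 1 against 4.05% to 6.41% elsewhere.

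**Figure D1:**
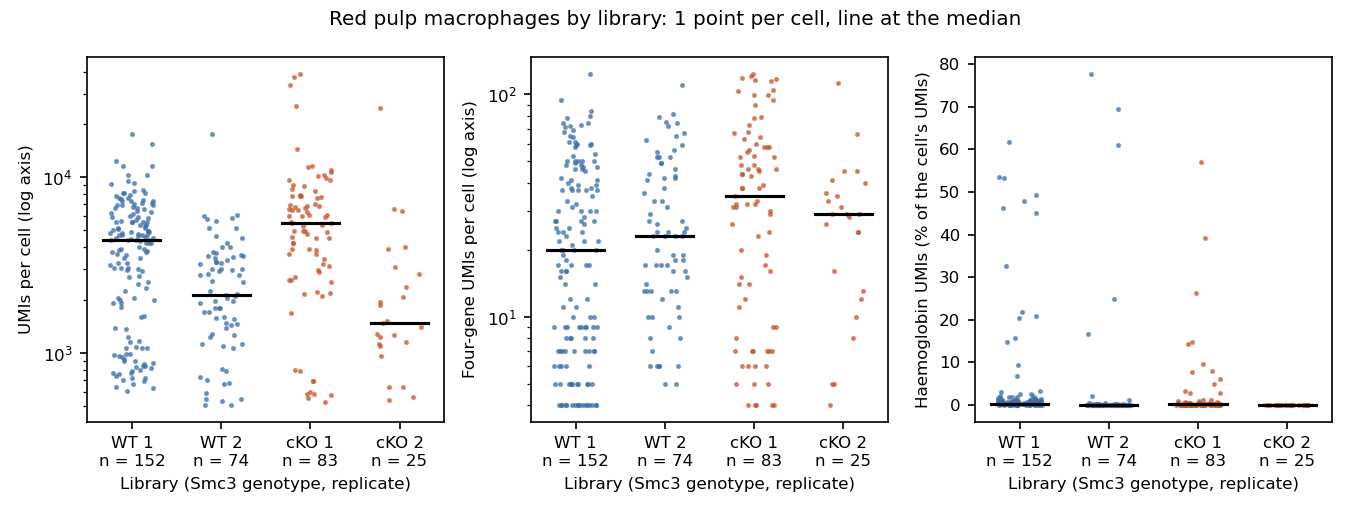
Each point is 1 red pulp macrophage, grouped by library (WT or cKO genotype and replicate), with a line at the library's median. The panels give UMIs per cell, the summed UMIs of Vcam1, Spic, Hmox1 and Slc40a1 per cell (both log axes), and the percentage of a cell's UMIs that are haemoglobin; median UMIs were 4376, 2148, 5473 and 1488, and most cells lie near 0% haemoglobin with a few far above.

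Markers of the other cell types that the gate could hold were measured in the members. Levels are in CPM, in which a gene's UMIs are divided by all UMIs of the summed cells and scaled to the usual fixed total. Markers of marginal zone and metallophilic macrophages summed to 24.9 to 98.5 CPM over 6 genes, with Cd209b and Cd209f at 0 in all libraries. Markers of stroma or endothelium summed to 295 to 575 CPM, mostly Stab2 and Pecam1, with Col3a1, Pdgfrb, Kdr and Ccl21a at 0. The list for red pulp macrophages themselves holds 5 genes that all belong to the rule, so it checks nothing.

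Some RNA of other cells was present, unevenly between libraries. Neutrophil markers reached 3240 and 205 CPM in the Smc3-WT libraries and 3472 and 93.7 CPM in the Smc3-cKO libraries, and both replicates numbered 1 were high. In those 2 libraries 1 cell held 97.1% and 90.5% of the S100a8 UMIs and 99.5% and 100% of the Ngp UMIs. The B cell list summed to 1881 to 2651 CPM. Most of that was Bank1, a B cell adaptor, at 1586 to 2005 CPM in the macrophages, while the B cell factor Pax5 stood at 14.3 to 70.8 CPM there and at 1495 to 1792 CPM in B cells. The plasma cell list reached 1422 CPM in Smc3-WT replicate 2 and 165 to 281 CPM elsewhere. The erythroid list summed to 44101, 49081, 20806 and 1901 CPM.

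Outside mitochondrial, ribosomal and immunoglobulin genes, the 20 genes with the most UMIs included Slc40a1, Vcam1 and Hmox1 of the rule and many that the rule did not use. CPM is not divided by gene length, so it is compared here between cells and libraries, not between genes. Mertk, the receptor by which macrophages take up dying cells, stood at 2523 and 2305 CPM in the Smc3-WT libraries against 1939 and 1419 CPM in Smc3-cKO. Slc8a1, a sodium and calcium exchanger, stood at 4249 and 2824 CPM in the Smc3-WT libraries against 3191 and 1982 CPM in Smc3-cKO. Frmd4b, a scaffold protein gene, stood at 2209 to 3053 CPM over the 4 libraries. In B cells of the same libraries these 3 genes reached at most 5.90, 65.0 and 13.6 CPM. Hmox1 stood at 664 and 3003 CPM in the Smc3-WT libraries against 1092 and 4325 CPM in Smc3-cKO: both replicates numbered 2 were above both numbered 1, and the genotypes overlapped.

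Shares of cells with a UMI also separated the macrophages after each cell was thinned to 1000 UMIs and shallower cells were left out. Itgad, an integrin subunit, was found in 45.2%, 61.3%, 67.1% and 85% of 124, 62, 73 and 20 thinned macrophages in Smc3-WT replicates 1 and 2 and Smc3-cKO replicates 1 and 2. In thinned B cells, which show what free RNA can give, it was found in 0.216% to 0.824%. Before thinning the macrophage shares were 65.8%, 82.4%, 72.3% and 72.0%, so the order of the libraries is not stable. Siglec1, a marker of metallophilic macrophages, was found in 0 to 5.0% of thinned cells.

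The cells were compared with 3 other myeloid populations of the same libraries, with the library as a block: 268 classical monocytes, 329 nonclassical monocytes and 389 conventional dendritic cells (DC), each chosen by its own marker genes. Those cells and the macrophages were all picked on their RNA, so these tests say how steadily sums differed over the 4 libraries and are not independent support for identity. With edgeR's quasi-likelihood test at an adjusted p of 0.05, 941 of 4842 genes were higher than in classical monocytes (19.4%) and 887 lower (18.3%). Against nonclassical monocytes 797 of 4357 were higher (18.3%) and 929 lower (21.3%), and against DC 783 of 7133 were higher (11%) and 941 lower (13.2%). Of 4154 genes tested in all 3, 365 were higher than in each of the other cells and 267 lower.

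Dgki and Ptprm were among the genes with the largest differences in favour of the macrophages. Dgki, a diacylglycerol kinase, averaged 2018 CPM in macrophages against 2.21 CPM in classical monocytes (log2 10.74, SE 0.57, edgeR adjusted p = 3.78e-09), 57.2 CPM in nonclassical monocytes and 2.83 CPM in DC. Ptprm, a receptor phosphatase that binds itself between cells, was among the 8 largest against all 3, at 1800 CPM against 0.59, 52.9 and 2.62 CPM. In nonclassical monocytes Dgki and Ptprm stood at 221 and 207 CPM in Smc3-WT replicate 1 and at 0 to 6.35 CPM in the other libraries. C6, a complement component, had 808 counts in macrophages and 0 in classical monocytes, at least 248-fold higher against a floor of 3 counts over the group. Hs3st2, a heparan sulfate sulfotransferase, was at 0 in DC and at least 566-fold higher in macrophages. Nonclassical monocytes of Smc3-WT replicate 1 held 415 CPM of Mertk, while those of the other libraries held 0, and the error of that difference was wide (log2 6.39, SE 1.07, edgeR adjusted p = 0.000649).

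Genes lower in the macrophages differed between the cells compared. F13a1 and Fn1, coagulation factor XIII A and fibronectin, averaged 16.7 and 19.9 CPM against 1776 and 1954 CPM in classical monocytes. Ldlrad3, a membrane receptor gene, was lower than in both monocyte populations, at 17.7 CPM against 855 and 1077 CPM. Kynu, kynureninase of tryptophan breakdown, averaged 19.7 CPM against 680 CPM in DC, and Alcam, an adhesion molecule for T cells, 50.3 CPM against 1560 CPM. Each of these differences went the same way in 4 of 4 libraries.

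**Figure D2:**
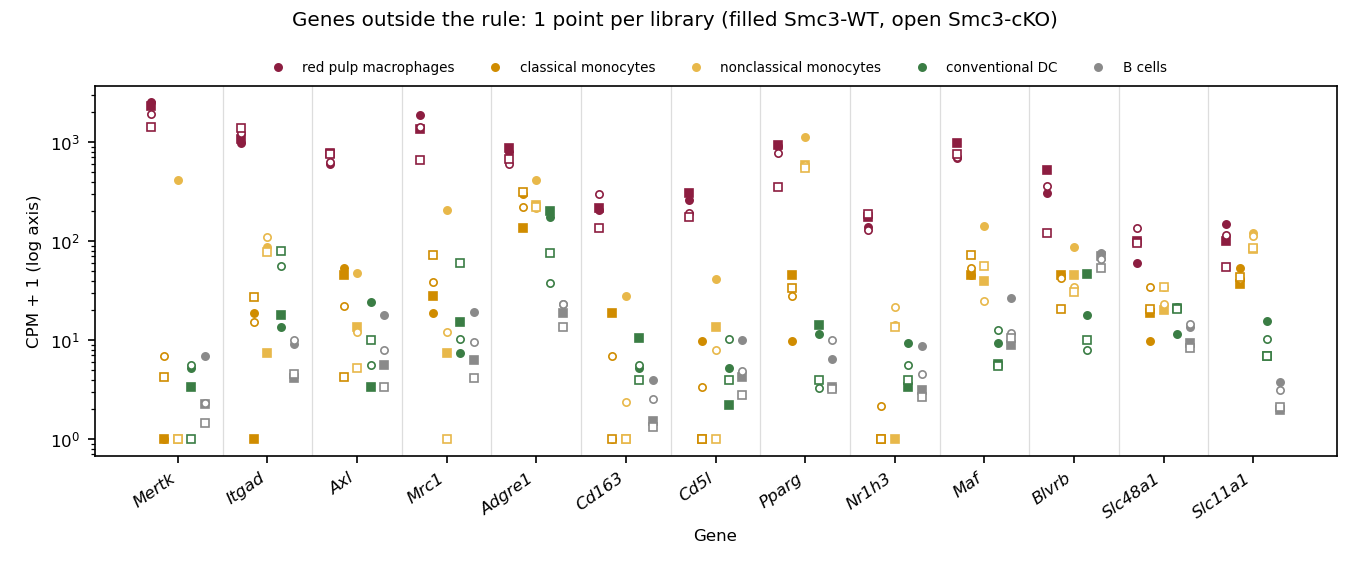
CPM + 1 (log axis) of 13 genes outside the rule in 5 cell populations, 1 point per library (colour for the population, circle replicate 1, square replicate 2, filled Smc3-WT, open Smc3-cKO). For Mertk the red pulp macrophages lie between 1419 and 2523 CPM, and the only high point elsewhere is the nonclassical monocytes of Smc3-WT replicate 1 at 415 CPM; Pparg is as high in nonclassical monocytes as in the macrophages.

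Transcription factors differed in both directions. Nr1h3, the oxysterol receptor LXR alpha, averaged 157 CPM against 0.295 CPM in classical monocytes (log2 7.12), and was also higher than in nonclassical monocytes (3.28) and DC (5.02). Maf, a factor of mature macrophages, averaged 783 CPM and was higher than in all 3 (log2 3.82 to 6.71). Pparg, a nuclear receptor of lipid metabolism, was higher than in classical monocytes (log2 4.60) and DC (6.52), and did not pass against nonclassical monocytes (745 against 713 CPM, log2 0.06, SE 0.25, edgeR adjusted p = 0.880). Spi1, which encodes PU.1, was lower than in all 3, at 157 CPM against 467, 628 and 381 CPM. Bach1, a repressor that heme inactivates, was lower than in both monocyte populations (log2 -2.12 and -2.06). Over the list of 22 factors, 7 of 17 tested were higher and 4 lower than in classical monocytes, beside 19.4% and 18.3% of all genes. Against nonclassical monocytes 6 of 17 were higher and 6 lower, beside 18.3% and 21.3%. Against DC 7 of 18 were higher and 4 lower, beside 11% and 13.2%. The list's medians (0.02, 0.06 and -0.02) lay near those of all genes (0.05, -0.02 and -0.10).

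Of the listed genes of heme and iron handling, 10 of 18 tested were higher than in classical monocytes, beside 19.4% of all genes. Against nonclassical monocytes 7 of 17 were higher, beside 18.3%, and against DC 10 of 18, beside 11%. Blvrb, biliverdin reductase B, averaged 327 ± 166 CPM (SD, n = 4 libraries) against 37.4 ± 11.9 CPM in classical monocytes, 48.6 ± 26.4 CPM in nonclassical monocytes and 19.6 ± 17.8 CPM in DC (log2 3.09, 2.82 and 4.003). Blvra, which makes bilirubin as well, followed at 127 ± 39.0 CPM (log2 1.96, 1.71 and 2.15). Slc48a1, which carries heme out of the phagosome, stood at 58.7, 99.8, 136 and 93.7 CPM and was higher than in all 3 (log2 2.20, 1.96 and 2.33). Cd163, the scavenger receptor for haemoglobin bound to haptoglobin, averaged 213 CPM against 5.35 to 7.04 CPM. Ncoa4, which leads ferritin to breakdown, was higher than in all 3 as well, and 1 cell held 25% of it at most. Tfrc, the transferrin receptor, also passed against all 3, with 52.7% and 84.6% of its UMIs in 1 cell in the replicates numbered 2. Tfrc is also a gene of red cell precursors, and the part of the erythroid RNA above in its level was not tested.

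Slc11a1, an iron exporter of the phagosome membrane, was higher than in classical monocytes (log2 1.34) and DC (3.47), and stood at 104 CPM against 99.7 CPM in nonclassical monocytes (log2 0.08, SE 0.26). Fth1 averaged 1771 ± 940 CPM and was higher than in classical monocytes only (log2 0.97), and Ftl1 was higher than in DC only (log2 0.88). Hfe, an HLA-like regulator of iron uptake, was lower than in nonclassical monocytes (log2 -1.63). Lower were 2, 2 and 0 of the listed genes against classical monocytes, nonclassical monocytes and DC, beside 18.3%, 21.3% and 13.2% of all genes. The list's medians were 1.12, 0.57 and 1.13 on the log2 scale, beside 0.05, -0.02 and -0.10 over all genes tested.

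Of the listed efferocytosis and scavenger receptors, 7 of 13 tested were higher and 3 lower than in classical monocytes, beside 19.4% and 18.3% of all genes. Against nonclassical monocytes 5 of 15 were higher and 6 lower, beside 18.3% and 21.3%, and against DC 8 of 14 were higher and 3 lower, beside 11% and 13.2%. Axl, a relative of Mertk, averaged 686 CPM and was higher than in all 3 (log2 4.83 to 6.16). Timd4, which binds phosphatidylserine, averaged 151 CPM against 0.696 to 1.75 CPM, and Stab2, a scavenger receptor, 191 CPM against 2.21 to 12.4 CPM. Tyro3, the remaining receptor of that kinase family, and Stab1 had no UMI in any macrophage. Havcr2, which encodes TIM-3, was lower than in nonclassical monocytes and DC (log2 -3.503 and -3.67), and Cd36 was lower too (log2 -2.87 and -1.30).

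Of 12 Fc and complement receptors tested, 3 were higher and 7 lower than in classical monocytes, where 19.4% and 18.3% of all genes were. Of 11 tested, 2 were higher and 7 lower than in nonclassical monocytes (all genes 18.3% and 21.3%), and of 9 tested, 4 were higher and 1 lower than in DC (all genes 11% and 13.2%). Fcgr4 stood between: 74.0 CPM, above classical monocytes (log2 2.14) and below nonclassical monocytes (log2 -1.79). Fcgr2b, the inhibitory Fc receptor, was lower than in all 3 (log2 -2.68 to -4.47). Cfp, properdin, which stabilises the alternative complement convertase, was higher than in all 3 (log2 1.68 to 3.42).

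Lysosomal and lipid genes differed by member. Of the lysosome list, 5 of 25, 8 of 24 and 11 of 26 tested were higher than in classical monocytes, nonclassical monocytes and DC. Lower were 8, 4 and 2 of them. Of the lipid list, 8 of 10, 5 of 14 and 8 of 18 were higher, and 1, 5 and 3 lower. Over all genes 19.4%, 18.3% and 11% were higher, and 18.3%, 21.3% and 13.2% lower. Among cathepsins, Ctsd was higher than in all 3 (456 CPM, log2 2.12 to 3.85), while Ctss was lower than in both monocyte populations (log2 -1.18 and -1.19). Lgmn, legumain, and Creg1 were also higher than in all 3. Abca1 and Abcg1, cholesterol exporters that LXR controls, and Cd5l, a secreted protein of tissue macrophages, were higher than in all 3 as well (Abca1 log2 2.31 to 5.09, Cd5l 4.22 to 6.34). Gclm, which helps make glutathione, was higher than in all 3 (log2 2.73 to 3.67; 1 cell held 87.5% of its 8 UMIs in Smc3-cKO replicate 2), and Gsr, glutathione reductase, was lower than in both monocyte populations (log2 -2.70 and -2.62). Of the oxidative stress list, 4 of 14, 5 of 13 and 3 of 15 were higher than in classical monocytes, nonclassical monocytes and DC, beside 19.4%, 18.3% and 11% of all genes. Lower were 2, 3 and 0 of them, beside 18.3%, 21.3% and 13.2%.

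Of the listed cytokine and growth factor receptors, 3 of 16 tested were higher and 9 lower than in classical monocytes, beside 19.4% and 18.3% of all genes. Against nonclassical monocytes 0 of 15 were higher and 12 lower, beside 18.3% and 21.3%, and against DC 4 of 18 were higher and 5 lower, beside 11% and 13.2%. Of the antigen presentation genes, 4 of 15, 1 of 14 and 1 of 15 were higher than in classical monocytes, nonclassical monocytes and DC. Over all genes these shares were 19.4%, 18.3% and 11%. Lower were 2, 5 and 10 of the list, beside 18.3%, 21.3% and 13.2% of all genes. The 1 that was higher than in DC was Cd86, a costimulatory molecule (702 against 178 CPM, log2 1.90). Cd86 was also above both monocyte populations (log2 3.78 and 3.26). The class II genes H2-Aa, H2-Ab1 and H2-Eb1 were in the gate that chose DC and were not tested there. Of 24 cytokines and chemokines, 5 had no UMI (Ccl7, Ccl12, Cxcl1, Cxcl2 and Cxcl12), and Il18 was higher than in all 3 (248 CPM, log2 2.56 to 3.41). Il1b, Tnf and Il6 stood at 0 to 17.9 CPM in each library.

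The 334 cells were not uniform. Their four-gene sum ran from 4 to 124 with library medians of 20, 23, 35 and 29. The 23 cells just inside the rule, with a sum of 4, held 127 CPM of Itgad, and the 29 just outside, with a sum of 3, held 44.6 CPM. The 311 cells above 4 held 1166 CPM of Itgad, 2338 CPM of Mertk and 763 CPM of Adgre1, which encodes F4/80. The edge of the rule thus takes in cells with little of the RNA that marks the rest.

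Itgad, which the rule did not use, split the cells in the same way. At least 1 Itgad UMI was found in 100 of 152, 61 of 74, 60 of 83 and 18 of 25 cells. In Smc3-cKO replicate 1 the cells with one held 3066 CPM of Mertk, 4442 CPM of Frmd4b and 924 CPM of Adgre1, and the 23 cells without held 19.4, 48.4 and 48.4 CPM. In Smc3-WT replicate 1 the 52 cells without held 104 CPM of Mertk and 532 CPM of Lyz2, a lysozyme gene of monocytes and neutrophils, against 3198 and 53.9 CPM in the 100 with. By the median the cells without were shallower in each library (1383, 1800, 4225 and 956 UMIs against 4948, 2150, 5535 and 1698.5). Depth alone lowers the chance of a UMI. In Smc3-cKO replicate 1 the cells without still included cells of 38975, 37041, 33642 and 25637 UMIs, out of 206605 in that group. In Smc3-cKO replicate 2 they included the cell of 24734 UMIs, out of 31442. Levels of the cells without in those libraries thus rest largely on these cells.

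Haemoglobin RNA followed the library and a few cells. All 152 and all 83 red pulp macrophages of the replicates numbered 1 had a haemoglobin UMI, against 47.3% in Smc3-WT replicate 2 and 0% in Smc3-cKO replicate 2. B cells of the same libraries had one in 100%, 99.02%, 20.3% and 3.90%, so the presence of a UMI followed the library in both cell types. The amount was concentrated: 13, 5, 5 and 0 macrophages of Smc3-WT replicates 1 and 2 and Smc3-cKO replicates 1 and 2 were over 10% haemoglobin, and the top 3 cells held 43.4%, 73.4% and 50.04% of it where there was any. Medians per cell in the replicates numbered 1 were 3333 and 2242 CPM, beside 3608 and 1230 CPM in B cells. Whether these UMIs came from ingested red cells, from erythroid cells in the same droplet or from free RNA was not tested.

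RNA of cell division was also concentrated in few cells. Cells with 10 or more UMIs over the 16 listed cell cycle genes numbered 5, 3, 6 and 1, and they held 60.5%, 92.8%, 94.1% and 89.3% of all such UMIs. In Smc3-cKO replicate 2 that was the 1 cell of 24734 UMIs that held 33.1% of the library's macrophage UMIs.

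The share of kept cells that were red pulp macrophages did not differ between genotypes beyond the spread. It was 1.24% (95% exact Clopper-Pearson interval 1.05 to 1.46) and 0.531% (0.417 to 0.666) in the Smc3-WT libraries against 1.16% (0.927 to 1.44) and 0.184% (0.119 to 0.272) in Smc3-cKO. The intervals cover counting error only. Means were 0.887% ± 0.504 (SD, n = 2) and 0.673% ± 0.692 (SD, n = 2), and the groups overlapped. The exact two-sided permutation p was 0.667, where 2 against 2 cannot go below 0.333. Leaving out Smc3-WT replicate 1 or Smc3-cKO replicate 2 turned the difference of -0.214 percentage points to 0.143 and 0.276, and leaving out Smc3-WT replicate 2 or Smc3-cKO replicate 1 gave -0.570 and -0.703. With a mitochondrial limit of 5% it was -0.643. With no limit on mitochondrial UMIs, a setting added after seeing the data, it was 0.0633.

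Smc3 stood at 58.7 and 64.9 CPM in the Smc3-WT libraries against 132 and 121 CPM in Smc3-cKO (39, 13, 74 and 9 counts; log2 0.92, SE 0.44, edgeR adjusted p = 0.989). Both Smc3-cKO libraries were above both Smc3-WT libraries. In the replicates numbered 2, 1 cell held 53.8% and 77.8% of its UMIs, and without the 5 largest cells of each library, a setting added after seeing the data, Smc3 stood at 47.0, 31.5, 78.3 and 69.0 CPM. The kit reads transcripts from their 3′ end and the labels do not name the deleted part, so this level does not check the knockout. Of the 12 tested cohesin and loop genes, among them Smc1a, Rad21, Stag2, Nipbl and Ctcf, 0 passed, and 0 had an unadjusted p under 0.05.

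Between genotypes 1 of 6503 genes tested passed an adjusted p of 0.05 (0.0154%), and 0 fell. At an unadjusted p under 0.05, 238 were higher and 86 lower in Smc3-cKO (3.66% and 1.32%). The gene was 9630028H03Rik, a long noncoding RNA. It had 0 and 0 counts in the Smc3-WT libraries against 126 and 15 in Smc3-cKO, or 226 and 201 CPM. That was at least 64.2-fold higher than the floor of 3 counts over both Smc3-WT libraries (edgeR adjusted p = 0.00862). DESeq2 on the same sums called it and Plcb1.

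9630028H03Rik was spread over many cells. UMIs of it were found in 36 of 83 cells (43.4%, 95% exact interval 32.5 to 54.7) and 10 of 25 cells (40%, 21.1 to 61.3) of the Smc3-cKO libraries. In Smc3-WT none of 152 or 74 cells had one, and 3 counts of the total would be shares of 1.97% and 4.05%, while the 95% exact upper limits are 2.40% and 4.86%. These limits are on cells with a UMI, not on cells that express the gene. No cell had more than 9, and the top cell held 7.14% of them in Smc3-cKO replicate 1 and 33.3% in replicate 2. Each of the 46 cells with the RNA also had an Itgad UMI. Their summed Itgad level was 2307 CPM against 558 CPM in the cells without in Smc3-cKO replicate 1, and 2644 against 588 CPM in replicate 2. Cd5l stood at 259 against 149 CPM in replicate 1 and at 139 against 196 CPM in replicate 2. In such sums large cells weigh most. The cells without included those of 38975, 37041, 33642 and 25637 UMIs in replicate 1 and of 24734 UMIs in replicate 2. None of these had an Itgad UMI. Haemoglobin made 0.744% of the UMIs of the cells with the RNA in replicate 1 against 2.65% in the cells without.

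**Figure D3:**
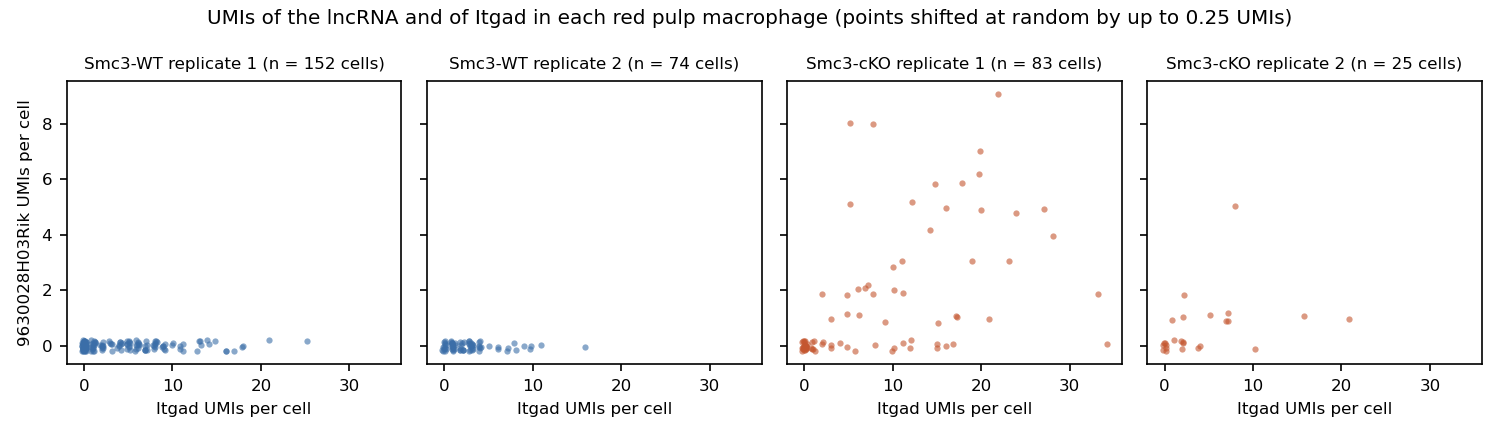
UMIs of 9630028H03Rik (vertical axis) against UMIs of Itgad (horizontal axis) in each red pulp macrophage, 1 panel per library, with points shifted at random by up to 0.25 UMIs so that they do not hide each other. All 152 and 74 Smc3-WT cells lie at 0 for the noncoding RNA, and 36 and 10 Smc3-cKO cells lie above it.

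The gene lies on chromosome 2 at 135580530 to 135583220 (GRCm38.p6, RefSeq), in the gap between the phospholipase genes Plcb1 (134786164 to 135475258) and Plcb4 (135658603 to 136014602), 105272 bases from the first and 75383 from the second. No other RefSeq gene overlaps it. Its promoter is printed because it is the only gene that passed between genotypes, and those of Plcb1 and Itgam because these had the next smallest p and likewise did not overlap between genotypes. They run from 250 bases before to 50 after the gene's start, 5′ to 3′ on the gene's strand, from RefSeq GRCm38.p6. Capitals mark GAGGAA or its reverse complement TTCCTC, a core of the sites that PU.1 binds, searched on both strands.
9630028H03Rik, chr2:135583171-135583470, minus strand: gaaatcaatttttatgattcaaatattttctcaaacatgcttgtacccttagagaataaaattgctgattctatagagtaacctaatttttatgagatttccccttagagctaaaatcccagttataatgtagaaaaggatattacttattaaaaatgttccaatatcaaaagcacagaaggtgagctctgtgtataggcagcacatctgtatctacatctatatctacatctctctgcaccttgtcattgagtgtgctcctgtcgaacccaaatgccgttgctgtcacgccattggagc
Plcb1, chr2:134785914-134786213, plus strand: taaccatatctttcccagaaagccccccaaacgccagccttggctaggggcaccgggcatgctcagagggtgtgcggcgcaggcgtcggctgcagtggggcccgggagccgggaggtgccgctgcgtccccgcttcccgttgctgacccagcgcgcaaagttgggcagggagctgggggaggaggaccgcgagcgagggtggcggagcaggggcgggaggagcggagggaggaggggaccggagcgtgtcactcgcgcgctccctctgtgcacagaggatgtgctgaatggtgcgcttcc
Itgam, chr7:128062390-128062689, plus strand: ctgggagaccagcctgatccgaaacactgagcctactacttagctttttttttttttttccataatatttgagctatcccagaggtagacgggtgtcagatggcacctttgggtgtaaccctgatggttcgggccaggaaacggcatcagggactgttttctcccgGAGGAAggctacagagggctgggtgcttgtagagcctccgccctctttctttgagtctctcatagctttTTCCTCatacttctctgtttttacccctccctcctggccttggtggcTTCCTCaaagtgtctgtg
The windows of 9630028H03Rik and Plcb1 held 0 matches, and that of Itgam 1 forward and 2 reverse. Of 32851 promoters of this length, 28.3% held at least 1, so a match is a common feature and describes these letters only.

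Plcb1, a phospholipase C that acts below G protein-coupled receptors, did not pass but had the next smallest p. It had 1 and 3 counts in Smc3-WT (1.51 and 14.97 CPM) and 135 and 12 in Smc3-cKO (242 and 161 CPM), with no overlap between the genotypes (log2 5.14, SE 0.74, edgeR adjusted p = 0.0733). UMIs of it were found in 1 and 2 Smc3-WT cells and in 36 and 8 Smc3-cKO cells, and 1 cell held 33.3% of them in each Smc3-cKO library. Without the 5 largest cells of each library, a setting added after seeing the data, the Smc3-cKO levels were 320 and 207 CPM and Plcb1 passed (adjusted p = 0.000139). Plcb4, on the far side of the noncoding RNA, stayed at 13.4 to 43.0 CPM with overlapping genotypes and was too low to be tested.

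The same neighbourhood was read in the other cells of the libraries. In B cells 9630028H03Rik had 9 and 2 counts in the Smc3-WT libraries against 48 and 24 in Smc3-cKO, and Plcb1 stood at 10.3 and 6.08 against 28.9 and 15.4 CPM. In nonclassical monocytes 9630028H03Rik had 0 and 0 counts against 23 and 2, and Plcb1 stood at 408 and 413 against 530 and 464 CPM. Those Smc3-cKO levels were above the Smc3-WT ones, as in the macrophages, without a test. Plcb4, whose genotypes overlapped in the macrophages, did not overlap there. In B cells Plcb4 stood at 5.63 and 4.55 CPM in the Smc3-WT libraries against 99.3 and 58.0 CPM in Smc3-cKO, and in nonclassical monocytes at 0 and 0 against 250 and 177 CPM. In DC 9630028H03Rik had 0 and 0 counts in the Smc3-WT libraries against 4 and 8 in Smc3-cKO, and Plcb1 0 and 0 against 55 and 113 counts. Plcb1 was high in classical monocytes of both genotypes (2723 and 892 CPM for Smc3-WT, 2311 and 2402 CPM for Smc3-cKO), where 9630028H03Rik stood at 44.2 and 8.92 CPM in the Smc3-WT libraries against 15.3 and 13.1 CPM in Smc3-cKO. Plcb1 and Plcb4 were named among genes changed in DC of these libraries by an earlier look at the same data, so their values here are no independent support.

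Itgam, which encodes CD11b and lies on chromosome 7 beside Itgax and Itgad, followed Plcb1 in rank. It had 15 and 4 counts in Smc3-WT (22.6 and 19.96 CPM) and 125 and 10 in Smc3-cKO (224 and 134 CPM), without overlap (log2 2.96, SE 0.50, edgeR adjusted p = 0.196). It passed without the 5 largest cells (adjusted p = 0.000477) and was not called by DESeq2. The neutrophil genes S100a8 and S100a9 passed without the 5 largest cells too, while in the full sums S100a8 stood at 884 and 54.9 against 1427 and 13.4 CPM. For S100a9 1 cell held 95.9% of the UMIs in Smc3-WT replicate 1 and 92.0% in Smc3-cKO replicate 1, as 1 cell did for S100a8. Itgam UMIs were found in 6 and 3 Smc3-WT cells and in 36 and 8 Smc3-cKO cells. Itgad, which pairs with the same beta chain, stood at 988 and 1073 CPM in the Smc3-WT libraries against 1235 and 1379 CPM in Smc3-cKO (log2 0.19, SE 0.38). Itgb2, that beta chain, stood at 140 and 175 against 111 and 94 CPM (log2 -0.70, SE 0.40), and Itgax at 0 to 33.1 CPM.

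Within the Smc3-cKO macrophages these RNAs often met in 1 cell. Of the 36 cells with 9630028H03Rik in Smc3-cKO replicate 1, 24 also had Plcb1, 23 had Itgam and 16 had both. Of the 10 in replicate 2, 5 had Plcb1, 5 had Itgam and 3 had both. Cells with more UMIs have a larger chance of each, and their medians were 5965.5 against 4723 UMIs in replicate 1 and 2014.5 against 1225 in replicate 2. Of the monocyte marker lists, the classical one gave 383 and 80.3 CPM in Smc3-cKO beside 268 and 304 CPM for Smc3-WT, and the nonclassical one 254 and 187 CPM beside 187 and 145 CPM. Whether RNA of those cells had a part in these levels was not tested.

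Other genes with small p leaned on the largest cells to differing degrees. Rad51b, a recombination gene, stood at 37.7 and 44.9 CPM in the Smc3-WT libraries against 197 and 241 CPM in Smc3-cKO, and without the 5 largest cells at 28.6, 25.2, 61.2 and 34.5 CPM. Bcl11a, a repressor of fetal globin, stood at 73.8 and 79.8 against 313 and 321 CPM, and without the 5 largest cells at 63.8, 31.5, 105 and 172 CPM. Rad51b and Bcl11a were thus lower without those cells in each Smc3-cKO library and still did not overlap between genotypes. In Smc3-cKO replicate 2 both levels then rest on very few of its 29005 UMIs, so the missing overlap is weak. Mcm10, a replication factor, had 1, 0, 20 and 6 counts, and without those cells 1.68, 0, 0 and 0 CPM. Myo1d, a myosin, had 10, 4, 83 and 5 counts, and without them 3.36, 0, 36.7 and 0 CPM. Neither Rad51b, Bcl11a, Mcm10 nor Myo1d passed (edgeR adjusted p = 0.347 for each).

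Among genes lower in Smc3-cKO none passed. Gm20275, a long noncoding RNA, had the smallest p: 325 and 185 CPM in the Smc3-WT libraries against 55.5 and 53.6 CPM in Smc3-cKO, over 79, 22, 23 and 3 cells (log2 -2.38, SE 0.45, edgeR adjusted p = 0.347). The class II genes H2-Aa and H2-Eb1, which present antigen to T cells, followed in rank, with Igkc, described below, between them. H2-Aa stood at 476 and 329 against 136 and 93.7 CPM (log2 -1.88, SE 0.40), and H2-Eb1 at 255 and 210 against 78.8 and 67.0 CPM (log2 -1.77, SE 0.40), both without overlap and both at an adjusted p of 0.347. Without the 5 largest cells the H2-Aa levels were 309 and 308 against 183 and 241 CPM.

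B lineage RNA stood beside these. Igkc, an antibody light chain gene, stood at 319 and 4560 against 118 and 53.6 CPM, but 1 cell held 96.4% of it in Smc3-WT replicate 2. Ly6d, a marker of B lineage cells, had 48, 9, 4 and 1 counts, over 42, 6, 4 and 1 cells. The B cell list as a whole ran to 2651 and 1881 CPM for Smc3-WT and to 1835 and 2263 CPM for Smc3-cKO and thus overlapped, and its part in the class II levels was not tested. Gm35188 had 35, 10, 3 and 1 counts.

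**Figure D4:**
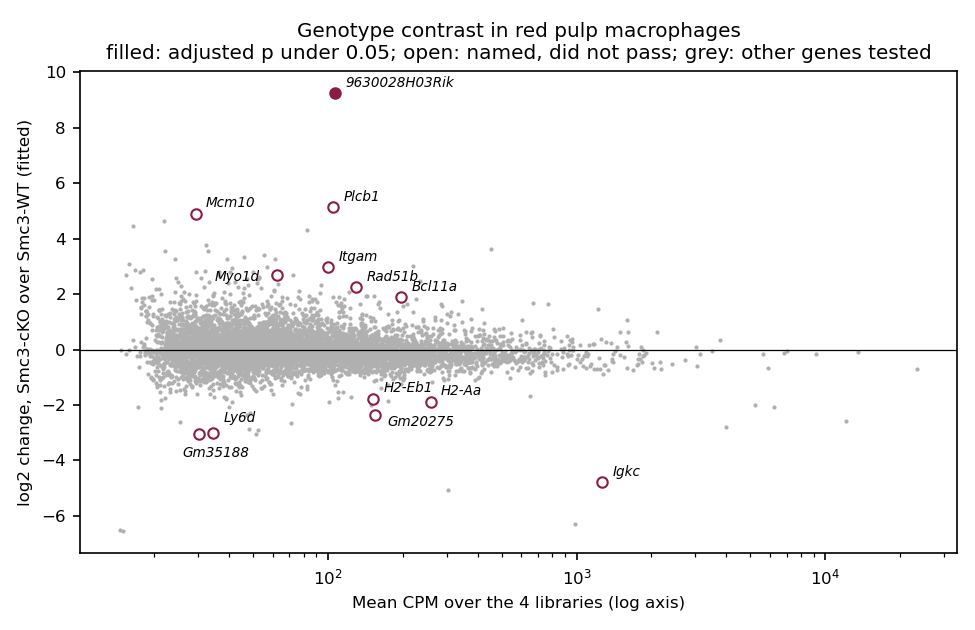
Fitted log2 change of Smc3-cKO over Smc3-WT (vertical axis) against mean CPM over the 4 libraries (log axis) for the genes tested in red pulp macrophages. Named genes are circled, filled for an adjusted p under 0.05 and open for those that did not pass; 9630028H03Rik at 9.25 is the only filled point.

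The count of genotype calls depended on single libraries. It was 15 and 25 without Smc3-WT replicates 1 and 2, and 14 and 27 without Smc3-cKO replicates 1 and 2, fits in which the lone library of a genotype is assumed to vary like the others. 9630028H03Rik passed in each of these. It did not pass when each library was cut to 25 cells (adjusted p = 0.215) or at a limit of 5% mitochondrial UMIs (adjusted p = 0.0814), where its log2 change was 7.61 and 8.82 and no gene passed.

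No gene of the 16 lists passed between genotypes in either direction. Of the 14 tested cell cycle genes, 7 were higher in both Smc3-cKO libraries than in both Smc3-WT libraries, where 24% of all genes tested were, and the list's median log2 change was 1.05 beside -0.02 over all genes. Mcm2 stood at 12.05, 49.9, 91.3 and 121 CPM (log2 1.86, SE 0.67), and Mki67, a proliferation marker, overlapped at 190 and 309 against 285 and 67.0 CPM. Most of these UMIs lay in the 5, 3, 6 and 1 cells described above, and without the 5 largest cells Mcm2 stood at 11.8, 6.29, 12.2 and 0 CPM.

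Of the 17 tested antigen presentation genes, 8 were lower in both Smc3-cKO libraries, where 12.1% of all genes tested were, with a median of -0.46. Cd74, the invariant chain, stood at 1202 and 753 against 421 and 228 CPM (log2 -1.68, SE 0.44), and Ciita, the class II activator, at 90.4 and 14.97 against 34.0 and 13.4 CPM. Ciita thus overlapped between genotypes, as did the class I gene H2-K1, at 556 and 698 against 627 and 736 CPM. The other listed class I genes are not reported here. Of the efferocytosis and scavenger list, 8 of 14 were lower without overlap (median -0.55). The surface list had 9 of 21 lower and a median of -0.62, among them Mertk (log2 -0.66, SE 0.43) and Cd5l (-0.75, SE 0.36), while Itgam and Itgad were the 2 higher. Among cells with an Itgad UMI, Mertk stood at 3198 and 2629 against 3066 and 2452 CPM, and the genotypes overlapped. Cd5l stood there at 297 and 352 against 284 and 278 CPM and did not overlap. Whether cells without an Itgad UMI had a part in the lower levels of these lists was not tested.

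Genes of heme and iron handling were close to the background. Of 20 tested, 3 were higher and 4 lower without overlap, beside 24% and 12.1% of all genes. Steap3, a ferrireductase, stood at 13.6 and 19.96 CPM in the Smc3-WT libraries against 59.1 and 40.2 CPM in Smc3-cKO, and without the 5 largest cells at 15.1, 12.6, 12.2 and 34.5 CPM. Trf, transferrin, stood at 443 and 489 against 337 and 295 CPM (log2 -0.69, SE 0.35), and Blvrb, Slc48a1 and Fth1 overlapped. Slc40a1, a gene of the rule, stood at 2740 and 3787 against 2217 and 2799 CPM.

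Of the oxidative stress list 6 of 16 were higher without overlap and 1 lower (median 0.33), beside 24% and 12.1% of all genes. The metal-binding metallothioneins Mt1 and Mt2 were higher without overlap: Mt1 at 10.5 and 49.9 against 85.9 and 228 CPM, and Mt2 at 10.5 and 4.99 against 82.4 and 67.0 CPM (log2 2.35 and 2.93). Without the 5 largest cells Mt1 stood at 11.8, 50.3, 12.2 and 34.5 CPM and Mt2 at 11.8, 0, 2.45 and 0, so these levels rest on those cells. Hsp90aa1, a chaperone, stood at 88.9 and 205 against 337 and 750 CPM, and without them at 80.6, 126, 56.3 and 69.0 CPM, the other direction. In Smc3-cKO replicate 2 the levels without those cells rest on very few of its 29005 UMIs. Interferon-stimulated genes had 0 higher and 1 lower of 12 without overlap, beside the same 24% and 12.1% of all genes. Among 30 genes earlier seen to change in DC of these libraries, 11 could be tested in the macrophages and none passed: Asb2 stood at 252 and 274 against 127 and 147 CPM (log2 -1.11, SE 0.37), and Adam23 at 155 and 34.9 against 16.1 and 0 CPM. Frmd5, Esrrg and Tmem132c of that list had no UMI in any macrophage.

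Whether the genotype change itself differed between macrophages and DC was tested as an interaction. Of 8486 genes tested, 13 had a positive and 6 a negative difference, macrophages minus DC (0.153% and 0.0707%, or 0.224% in all). The sign does not say which cell type changed more. Car2, a carbonic anhydrase, stood at 279 and 454 against 965 and 335 CPM in macrophages, and at 67.5 and 108 against 16.1 and 14.95 CPM in DC (difference 2.96, SE 0.56, edgeR adjusted p = 0.0230). In Smc3-cKO replicate 2 all Car2 UMIs lay in 1 macrophage, and without the 5 largest the difference was 2.10 (adjusted p = 0.502). Mical3, a cytoskeletal monooxygenase, stood at 143 and 145 against 218 and 161 CPM in macrophages and 264 and 169 against 27.6 and 65.8 CPM in DC (difference 2.54, SE 0.53, edgeR adjusted p = 0.0350). 4931431B13Rik, a noncoding RNA within Itgad whose reads could not be told from those of Itgad with certainty, went the other way: 140 and 94.8 against 48.3 and 26.8 CPM in macrophages, and 0 and 2.39 against 23.0 and 28.4 CPM in DC (difference -5.46, SE 0.99, edgeR adjusted p = 0.0157). For Itgam the difference was 2.58 (SE 0.62, adjusted p = 0.0939), and for Plcb1 -4.92 (SE 1.71, adjusted p = 0.398). Without Smc3-cKO replicate 1 only 6 genes passed, and 4 of the 19 were among them. Without the 5 largest macrophages of each library 17 passed, and 5 of the 19 were among them.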

How the data were processed

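Single-cell RNA was counted in 4 spleen libraries, 2 per genotype. The values are the deposited UMI counts per gene and cell, raw and not normalized, made with Cell Ranger 7.0.0 per the file headers and on mm10 per the submitters' processing notes. Whether intronic reads were counted is not given in the sources used here. Kept cells were chosen as the report states, and UMIs of the chosen cells were summed per library. Levels are plain CPM of those sums.

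Sums were compared with edgeR 4.0.16 (R 4.3.3; quasi-likelihood F test, filterByExpr, TMM, Benjamini-Hochberg over all genes tested, threshold 0.05). Comparisons between cell types had the library as a block. The standard error is the log2 change over the square root of F. Scripts were tested on simulated data. Doublets were called with Scrublet in scanpy 1.11.5 and kept, except in 1 alternative. Shares have exact Clopper-Pearson 95% intervals, which with the 3-count floors cover counting error only.

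Named between genotypes were genes past the threshold plus, where fewer than 5 passed, the 6 of smallest p in a direction at 50 CPM or more. Against other cells they were the 8 largest changes per direction with at least 100 CPM in every library of the higher cell type. Listed genes were named where their role is described, and a few genes that passed are not reported here. The cells and gene lists were chosen with earlier results of these data known. Alternatives were other size factors, no count filter, DESeq2 1.42.0, the replicate number as a block, each library left out, doublets removed, a stricter rule, equal cell numbers, a 5% mitochondrial limit and, added after seeing the data, the 5 largest cells left out.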

Additional observations from a re-analysis of the deposited data

Results flagged for a closer look

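The genotype change differed between red pulp macrophages and conventional DC for 19 genes by edgeR's interaction test at an adjusted p of 0.05. Values are the log2 genotype change in macrophages minus that in DC, so their sign does not say which cell type changed more. Both cell types share no cells but come from the same libraries.

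The difference was positive for Car1 (11.66), a carbonic anhydrase of the erythroid lineage, Slc25a21 (8.27), a mitochondrial carrier, and Myb (5.56), a factor of progenitor cells. Car1 stood at 15.1 and 120 CPM in the Smc3-WT libraries against 134 and 1540 CPM in Smc3-cKO macrophages, and all of it in Smc3-cKO replicate 2 lay in 1 cell. Slc25a21 stood at 265 and 444 against 1456 and 911 CPM, with 98.5% of it in 1 cell of Smc3-cKO replicate 2. The DNA synthesis gene Dut (3.15) and the recombination gene Rad51b (2.85) likewise had 100% and 83.3% of their UMIs there in 1 cell. For Car1 and Slc25a21 the log2 change in macrophages alone was 3.63 and 1.63. In DC Car1 stood at 16.9 and 114 against 0 and 0 CPM, and Slc25a21 at 12.7 and 45.5 against 0 and 0 CPM. With no UMI in Smc3-cKO DC, the counts do not bound the size of these 2 differences.

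The other positive differences were those of Car2 (2.96), Ncald (10.20), Mt1 (4.29), Chst11 (3.97), Pard3b (4.51), Myh10 (7.74), Mical3 (2.54) and Prkar2b (3.10). Myh10 also stood at 0 CPM in both Smc3-cKO libraries of DC, so the size of its difference is not bounded either. For Mical3 the log2 genotype change was 0.31 in macrophages and -2.16 in DC. Ncald had UMIs in the macrophages of Smc3-cKO replicate 1 only, 90.5% of them in 1 cell. Mical3 did not lean on 1 cell: the top cell held 33.3% at most.

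Among the negative differences were those of 4931431B13Rik (-5.46), Igha (-7.53), Thrb (-6.58), Aif1 (-2.60) and Crip1 (-2.40). Igha, an antibody heavy chain gene, stood at 3881 CPM in Smc3-WT replicate 2, where 1 cell held 99.4% of it, and at 6.02 to 30.4 CPM in the other libraries. Thrb, a thyroid hormone receptor, stood at 408 and 409 against 337 and 214 CPM in macrophages and at 0 and 0 against 25.3 and 4.49 CPM in DC.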

How the results depend on the processing

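The genotype count of 1 gene was 1 with RLE size factors and without doublets, 66 without a count filter, 2 with DESeq2, 2 under the stricter rule, 0 with 25 cells per library (105 at an unadjusted p under 0.05), 0 at a 5% mitochondrial limit (67 unadjusted), 5 without the 5 largest cells and 14 to 27 with each library left out, where a lone library is assumed to vary like the others. With the replicate number as a block it was 167 (110 higher, 57 lower). Deviations of same-numbered libraries from their genotype means correlated at 0.198. With 2 libraries per genotype this value is the same for both replicate numbers by construction. It does not establish that the numbers pair the samples. Leaving out libraries gave 903 to 2078 genes against classical monocytes and 1034 to 2114 against nonclassical monocytes, each lowest without Smc3-cKO replicate 1, and without a count filter the latter was 2756. The interaction count of 19 was 44 without a count filter and 6 to 27 with each library left out. The Igha difference of -7.53 ran from -9.06 to 0.19 with each library left out, reversed without Smc3-WT replicate 2. The cause of these shifts was not tested. Smc3-cKO replicate 2 had the fewest macrophages and UMIs, 25 cells and 74680 UMIs.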
